A study of Rattus norvegicus with 5 samples.

Results

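The members are 7 immediate early genes, Fos, Fosb, Jun, Junb, Egr1, Atf3 and Dusp1, followed in single ventricular cells of the neonatal rat in culture. They were taken by a fixed list of Ensembl identifiers that gives each its name: ENSRNOG00000008015 (Fos), ENSRNOG00000046667 (Fosb), ENSRNOG00000026293 (Jun), ENSRNOG00000042838 (Junb), ENSRNOG00000019422 (Egr1), ENSRNOG00000003745 (Atf3) and ENSRNOG00000003977 (Dusp1). All 7 were present in every table, among 15077 genes listed in all 5. The tables give identifiers without symbols, so the pairing of name and identifier rests on that list.

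The study addressed the conversion of ventricular myocytes to pacemaker-like cells by the transcription factor TBX18. Its 5 libraries were made from primary ventricular cells of wild type Sprague Dawley rats at postnatal day 2, a culture that holds both myocytes and non-myocytes according to the labels. The cells received Adeno-GFP, an adenovirus for the green fluorescent protein, or Adeno-TBX18. Both were collected at day 3 and at day 14. The other library came from cells given Adeno-TBX18 with A83-01, an inhibitor of TGF-beta receptors, at 0.2 µM. Its title and description place it at day 14 and its treatment label gives 3 days, so the length of exposure is not settled. Every culture was brought into suspension with trypsin before capture. Each group has 1 library, so no test between groups was made, no p-value is given, and differences between cultures of 1 group are unknown. All intervals are 95% intervals for counting error only.

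Immediate early genes are transcribed within minutes of a growth signal, a stretch, a rise in calcium or a stress, from promoters already occupied by factors such as SRF and CREB. Fos, FosB, Jun and JunB pair into the AP-1 factors, and Egr1 and Atf3 are further transcription factors of the same early wave. Dusp1 is a phosphatase that switches off the MAP kinases that induce the others. In the heart the family is a classical marker of acute hypertrophic stimuli, and in many tissues its members are also induced when cells are dissociated with enzymes, a step that all 5 libraries share.

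Because the members move together in part and apart in part, their promoters are shown for the regulatory letters they hold. RefSeq promoters (build GRCr8, 250 bases before to 50 after the start of the gene) were found for 4 of the 7 members, Fosb, Junb, Egr1 and Dusp1, and 3 are printed from 5′ to 3′ along the gene. Capitals mark matches, on either strand, to the cyclic AMP response element TGACGTCA, its core TGACG, the AP-1 element TGANTCA, the TATA element TATAAA or the CArG box bound by SRF.
Fosb, chr1:88089135-88089434, minus strand: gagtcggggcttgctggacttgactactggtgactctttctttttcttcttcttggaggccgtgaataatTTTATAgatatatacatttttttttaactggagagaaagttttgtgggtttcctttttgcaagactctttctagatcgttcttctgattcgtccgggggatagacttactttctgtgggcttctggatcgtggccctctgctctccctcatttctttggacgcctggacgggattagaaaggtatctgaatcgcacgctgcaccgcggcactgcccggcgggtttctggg
Junb, chr19:40080876-40081175, plus strand: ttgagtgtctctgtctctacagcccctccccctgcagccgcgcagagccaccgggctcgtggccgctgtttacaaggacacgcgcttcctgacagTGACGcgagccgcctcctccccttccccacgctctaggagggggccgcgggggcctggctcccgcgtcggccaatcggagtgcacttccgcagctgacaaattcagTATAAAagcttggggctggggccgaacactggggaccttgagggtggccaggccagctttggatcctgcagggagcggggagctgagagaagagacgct
Dusp1, chr10:17184603-17184902, plus strand: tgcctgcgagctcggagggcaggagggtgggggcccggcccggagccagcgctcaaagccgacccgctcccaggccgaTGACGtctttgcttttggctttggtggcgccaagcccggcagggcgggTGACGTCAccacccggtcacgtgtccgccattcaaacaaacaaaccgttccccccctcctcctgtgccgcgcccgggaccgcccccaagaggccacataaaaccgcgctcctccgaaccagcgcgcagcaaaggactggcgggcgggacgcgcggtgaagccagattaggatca

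The promoter of Dusp1 held 1 full TGACGTCA, at position -124 from the start, and 3 matches to the core, of which 2 lie within that element on its opposite strands. A full element was present in 1.83% of 33469 rat promoters of this length, and the core in 21.2%. In Junb the window held 1 core at position -155 and 1 TATAAA at position -49. In Fosb it held 1 TATAAA, on the opposite strand, at position -180. TATAAA was present in 14.2% of all promoters. The Egr1 window held 2 CArG boxes, which 1.64% of all promoters held at least once, and 2 cores. The AP-1 element, present in 7.33% of all promoters, was matched in 0 of the 4 windows. These matches describe the letters in the windows and were not tested as binding sites.

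After filters the libraries held 7664 cells for GFP at day 3, 6100 for TBX18 at day 3, 6064 for GFP at day 14, 7904 for TBX18 at day 14 and 7163 for TBX18 with A83-01. Median depth per library and compartment lay between 15111 and 29351 UMIs (unique molecular identifiers, each marking 1 captured RNA molecule) per cell. Pairs of libraries shared from 7 to 20 cell barcodes. Clusters built without the 7 members and the virus features fell into 2 compartments. Compartment 1 is by definition the compartment where EGFP was found more often at day 3. Only cells deep enough to be thinned to the same depth were counted for this. In the GFP library, 2428 of 4503 such cells of compartment 1 held a UMI of EGFP, against 231 of 2987 in compartment 2. EGFP was counted before thinning, so depth was not equalised. In compartment 1, median UMIs were 24798 in cells with EGFP and 20033 in cells without. In compartment 2 they were 30370 and 23628. Marker genes could not be read from identifiers, so the compartments could not be checked as myocytes and stromal cells and are not given those names. In the 5 libraries, in the order above, compartment 1 held 4630, 3245, 2016, 1263 and 2455 cells. Of the 26 clusters, 12 took at least 90% of their cells from 1 library, so a cluster and a library often cannot be told apart.

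**Figure D1:**
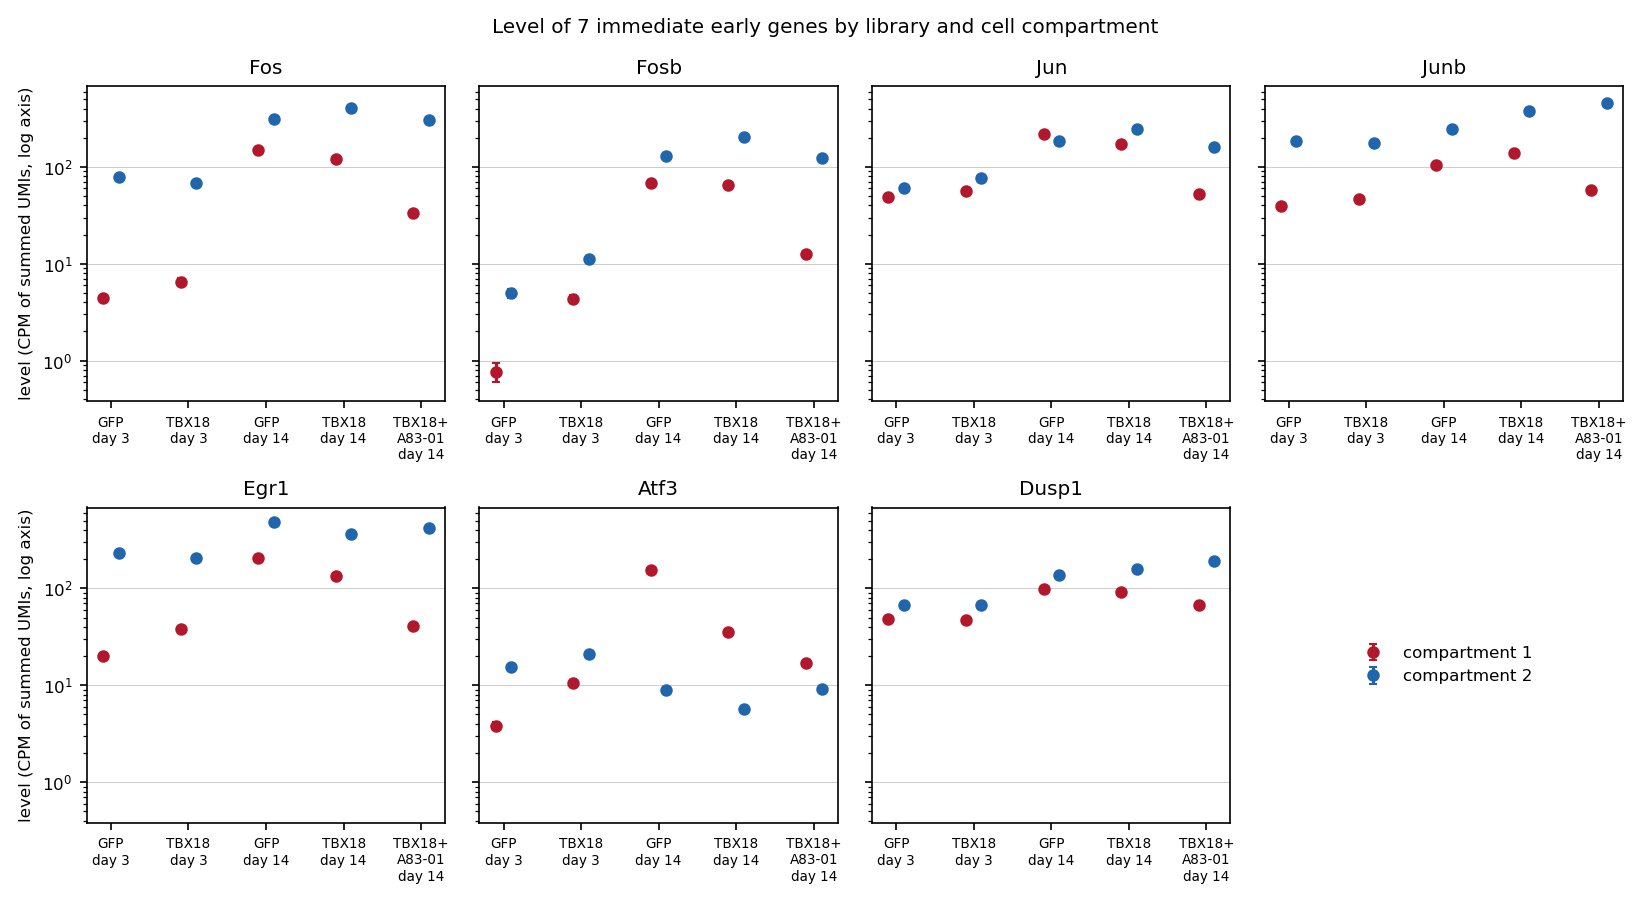
Level of each of the 7 genes in CPM (log axis) in each library, with compartment 1 in red and compartment 2 in blue and bars for 95% counting intervals, mostly smaller than the points. Except for Atf3, and for Jun in GFP at day 14, compartment 2 lies above compartment 1 in every library, and the day 14 libraries without A83-01 lie above those of day 3.

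Within the Fos family, both members were far higher at day 14 than at day 3. The level of Fos in compartment 1, in CPM (its UMIs scaled to the same total in each sum of cells), was 4.40 in GFP and 6.52 in TBX18 at day 3, and 151 in GFP, 121 in TBX18 and 33.4 in TBX18 with A83-01 at day 14. In compartment 2 it was 78.6 and 68.7 at day 3, and 312, 406 and 303 at day 14, in the same order. In the order of the levels, no neighbours had overlapping counting intervals for Fos in either compartment. Fosb, the second member of the family, was scarce at day 3. It stood at 0.768 and 4.31 CPM in compartment 1 at day 3, the first from 80 UMIs in 4630 cells, and at 68.0, 65.2 and 12.5 CPM at day 14. In compartment 2 Fosb stood at 4.97 and 11.3 CPM at day 3 and at 131, 201 and 124 CPM at day 14. The counting intervals of GFP and TBX18 at day 14 overlapped for Fosb in compartment 1 on this scale of total UMIs.

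Of the Jun proteins, Jun differed little between the compartments and Junb differed more. Jun stood at 48.7, 56.0, 219, 173 and 52.1 CPM in compartment 1 (the order of libraries is as for Fos) and at 60.3, 76.3, 187, 244 and 160 CPM in compartment 2. Its 2 compartments lay within 1.41-fold of each other in every library but that with A83-01, where they were 3.06-fold apart. Junb, which often opposes Jun within AP-1, stood at 39.5, 46.2, 104.5, 140 and 57.8 CPM in compartment 1 and at 185, 175, 246, 379 and 452 CPM in compartment 2, where the A83-01 library was the highest of the 5.

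Egr1, a zinc finger factor induced by growth signals, stood at 19.9 and 38.3 CPM in compartment 1 at day 3, and at 206, 135 and 41.1 CPM at day 14. In compartment 2 it stood at 231, 206, 482, 361 and 424 CPM. Atf3, a stress-induced member of the ATF family, did not follow the others. It stood at 3.80, 10.6, 156, 35.3 and 16.9 CPM in compartment 1 and at 15.5, 21.1, 8.92, 5.68 and 9.13 CPM in compartment 2, so that its day 14 levels were the high ones in compartment 1 and the low ones in compartment 2. Dusp1 had the narrowest range of the 7 in compartment 1. Its levels were 48.8, 47.3, 97.8, 92.7 and 66.8 CPM in compartment 1 and 66.7, 68.0, 139, 157 and 193 CPM in compartment 2. On this scale of total UMIs the counting intervals of the first 2 values of each series for Dusp1, those of day 3, overlapped, and so did those of GFP and TBX18 at day 14 in compartment 1.

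The comparison of day 14 with day 3 asks what time in culture does with each virus. In the GFP libraries all 7 members were higher at day 14 in compartment 1, by between 2.0-fold for Dusp1 and 88.6-fold for Fosb, and 6 of 7 were higher in compartment 2. Calls of 2-fold were counted on log2(CPM + 0.5), for genes averaging 20 CPM or more over the libraries. In compartment 1, 6 of the 7 members were at least 2-fold higher, where 11.7% of all 4522 genes tested were, and 0 were lower by that much, where 6.39% were. Dusp1, at 0.995 on that scale, lay just under the mark of 1. The members' median log2 ratio was 3.37, beside 0.09 for all genes. In compartment 2, 6 members passed the minimum and 5 were at least 2-fold higher, where 18.3% of 4985 genes were, and 0 at least 2-fold lower, where 9.63% were. The medians were 1.06 for all 7 members, including Atf3, which did not pass, and 0.05 for all genes tested. The members' medians were taken without the added 0.5. Members that are low at day 3, such as Fosb, Fos and Atf3, passed the minimum of 20 CPM in compartment 1 through their day 14 levels. So did Fosb in compartment 2. This bears on these counts and on the TBX18 counts below.

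In log2 terms the GFP ratios in compartment 1 were 6.47 for Fosb (6.15 to 6.81), 5.36 for Atf3 (5.21 to 5.51), 5.10 for Fos (4.97 to 5.25), 3.37 for Egr1 (3.30 to 3.44), 2.17 for Jun (2.11 to 2.22) and 1.40 for Junb (1.34 to 1.47). In compartment 2 the ratio of Fosb was also the highest of the 7, at 4.72, followed by Fos at 1.99 and Jun at 1.64. Atf3 was the exception there, with a log2 ratio of -0.80 (-0.94 to -0.65). That value was -1.50 without the 183 cells of cluster c22, where Atf3 stood at 153 CPM.

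With TBX18, the day 14 library was again the higher. In compartment 1 Fos had a log2 ratio of 4.22 (4.09 to 4.35), Fosb 3.92 (3.76 to 4.08), Egr1 1.82 (1.75 to 1.89), Atf3 1.73 (1.59 to 1.87), Jun 1.62, Junb 1.60 and Dusp1 0.97. Of the 7 members, 6 were at least 2-fold higher, where 17.2% of genes tested were, and 0 at least 2-fold lower, where 2.61% were. In compartment 2, 5 of the 6 members that passed were, where 25.4% of genes were, and Egr1 was the other with a log2 ratio of 0.81. None of the 6 was at least 2-fold lower, where 6.86% of genes were. Atf3 had a ratio of -1.89 there (-2.03 to -1.76) and was below the minimum of the count. The median of all genes was itself above 0 in these comparisons, and scaling by the median of ratios lowered every TBX18 ratio by 0.38 in compartment 1 and 0.29 in compartment 2. On that scale 3 rather than 5 members were at least 2-fold higher in compartment 2, where 17.1% of genes were. For the GFP libraries it was 4 rather than 5 in compartment 2, where 17.2% of genes were. The tables of day 3 and day 14 differ in unit, in gene list and in the range of cells kept, so time and these differences cannot be told apart. Limiting all libraries to the day 14 range of 1977 to 5563 genes per cell left the Fos ratio in compartment 1 at 5.15 with GFP and 4.11 with TBX18.

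**Figure D2:**
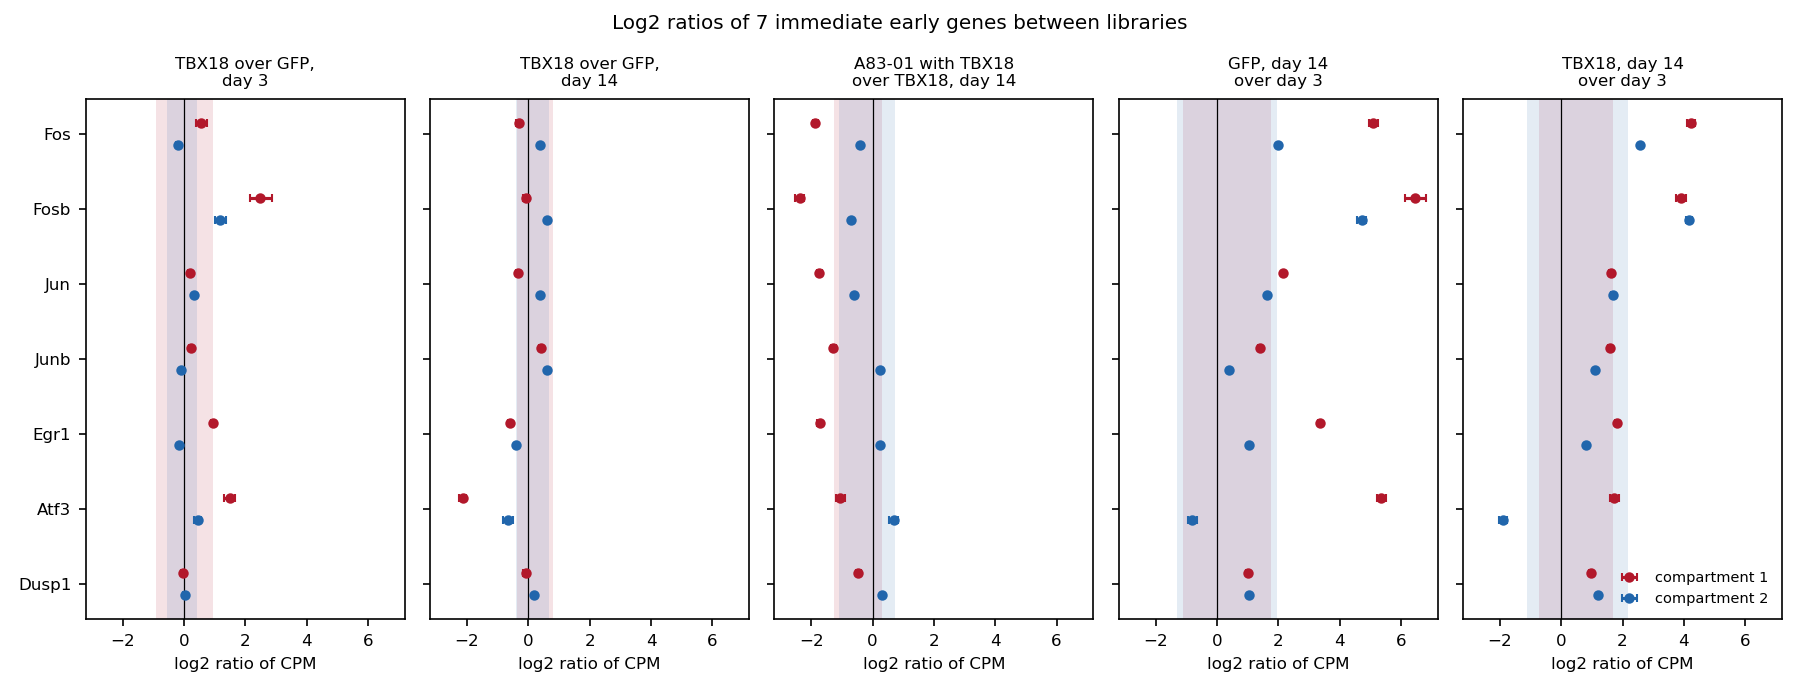
Log2 ratio of CPM for each gene in the 5 comparisons between libraries, compartment 1 in red and compartment 2 in blue, with bars for 95% counting intervals. Shaded bands span the 5th to the 95th percentile of all genes tested in the compartment of the same colour, and the A83-01 panel shows 6 of the 7 genes left of -1 in compartment 1 and 0 in compartment 2.

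TBX18 was compared with GFP at day 3 to see the early state of transduced cells. Fosb and Atf3 were the members that differed most in compartment 1. Fosb was 5.61-fold higher with TBX18, a log2 ratio of 2.49 (2.14 to 2.85), and Atf3 2.80-fold higher, a log2 ratio of 1.48 (1.31 to 1.66). Egr1 was 1.93-fold higher, at 0.95 (0.87 to 1.03), and Fos 1.48-fold higher, at 0.57 (0.39 to 0.75). Jun and Junb were within 0.23 of 0, and Dusp1 did not differ beyond counting error, at -0.05 (-0.10 to 0.01). Fosb and Atf3 made 2 of 7 members at least 2-fold higher, where 4.25% of genes tested were, and 0 members were at least 2-fold lower, where 3.74% were. Both lay under 20 CPM in the 2 libraries compared and passed the minimum through their day 14 levels, which bears on this count. With a pseudocount of 5 CPM in place of 0.5, 0 members passed 2-fold, since both genes are low at day 3. Under median-of-ratios scaling Egr1 was added, so that 3 of 7 were at least 2-fold higher, where 5.22% of genes were. In compartment 2 Fosb was 2.27-fold higher and was 1 of 6 members past 2-fold, where 1.16% of genes were, and 0 were at least 2-fold lower, where 0.863% were. Fosb passed the minimum there through its day 14 levels too. The other members there had log2 ratios between -0.19 and 0.45.

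The Egr1 difference in compartment 1 was not spread evenly over the cells. It was concentrated in cluster c18, a cluster of 421 cells of the TBX18 library at day 3 that makes up 13.0% of its compartment 1 and in which 86.9% of cells carried a UMI of the TBX18 virus (ZsGFP or hTBX18). In c18 Egr1 stood at 192 CPM, Junb at 134 CPM and Fosb at 19.4 CPM, while Fos stood at 3.97 CPM and Dusp1 at 11.1 CPM. In the main cluster of the same library and compartment, c6 with 2226 cells, the levels were 11.7 CPM for Egr1, 28.2 for Junb, 1.74 for Fosb, 5.58 for Fos and 48.6 for Dusp1. Without c18, the day 3 log2 ratio of TBX18 over GFP turned to -0.15 for Egr1 and to -0.19 for Junb, and that of Fosb was 1.58. Cluster c20, present in both day 3 libraries, was high in Junb and Egr1 too. There Junb stood at 171 CPM with TBX18 and 186 CPM with GFP, and Egr1 at 98.3 and 136 CPM. Without c20, which is also high in Fosb in both libraries, the ratio of Fosb was 3.33. With each cell thinned to the same depth, the ratio of Egr1 over the whole compartment was 1.55 in place of 0.95. After each cell was thinned to 5000 UMIs, 14 of 3155 cells held at least 10 UMIs of Egr1 each and together 43.9% of its UMIs. All 14 belonged to c18 and carried a virus UMI. The GFP library held 1 such cell among 4503. These counts depend on the random draw: in a second draw to the same depth, 13 TBX18 cells with 42.7% of the UMIs and 0 GFP cells reached 10.

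Within compartment 1 at day 3, the level of Egr1 went up with the number of virus UMIs in a cell in the TBX18 library and not in the GFP library. This pattern was looked for after c18 had been seen. With TBX18, Egr1 stood at 14.8 CPM in 1848 cells without a virus UMI, 20.8 in 591 cells with 1, 39.1 in 364 cells with 2 to 3, 112 in 276 cells with 4 to 10 and 217 CPM (204 to 231) in 166 cells with over 10. With GFP, where EGFP was counted, Egr1 stood at 20.7, 16.7, 22.4, 18.2 and 21.3 CPM in the same steps. The share of cells with an Egr1 UMI after thinning was 5.40% (4.40% to 6.56%) without a virus UMI and 5.16% (3.51% to 7.29%) with 1 in the TBX18 library. It was 9.72% with 2 to 3, 20.2% with 4 to 10 and 39.4% (31.9% to 47.3%) with over 10. The step from few to many virus UMIs was also present outside c18, where Egr1 stood at 14.0 CPM with 0 virus UMIs and at 49.1 CPM in 164 cells with 4 to 10.

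Over the whole of compartment 1, Fosb and Junb followed Egr1, and Dusp1 went the other way. With TBX18, Fosb went from 1.99 CPM without a virus UMI to 25.8 CPM with over 10, and Junb from 31.1 to 105 CPM. Dusp1, the phosphatase, went from 55.7 to 26.4 CPM with 4 to 10 virus UMIs and to 4.52 CPM (2.80 to 6.91) with over 10. Cluster c18 is part of these steps, and steps outside it are not given here for Fosb, Junb or Dusp1. Over all of compartment 1 without c18, Junb stood at 34.5 CPM and Fosb at 2.29 CPM with TBX18 at day 3. Fos stood between 5.17 and 9.05 CPM over all steps, but outside c18 it went from 6.04 CPM without a virus UMI to 11.8 CPM (9.18 to 15.0) with 4 to 10. Atf3 went from 7.90 to 21.9 CPM with 4 to 10 virus UMIs, and to 20.9 CPM outside c18, and stood at 15.9 CPM with over 10. With GFP, Dusp1 stood between 41.8 and 54.5 CPM over the steps, and Fosb was at 1.36 CPM without a virus UMI and had 0 UMIs in the 172 cells with over 10 (upper end of the interval 0.707 CPM). The GFP values were not flat: Dusp1 was highest without a virus UMI and lowest with 4 to 10. Junb with GFP went from 46.3 CPM without a virus UMI to 29.6 with 4 to 10 and 43.9 with over 10. Fos with GFP stood at 5.68, 3.28 and 5.17 CPM in these 3 steps. Depth moved with these groups too: median UMIs per cell were 27949.5 without a virus UMI, 33508.5 with 4 to 10 and 28756.5 with over 10 in the TBX18 library, and its part in the result was not tested.

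**Figure D3:**
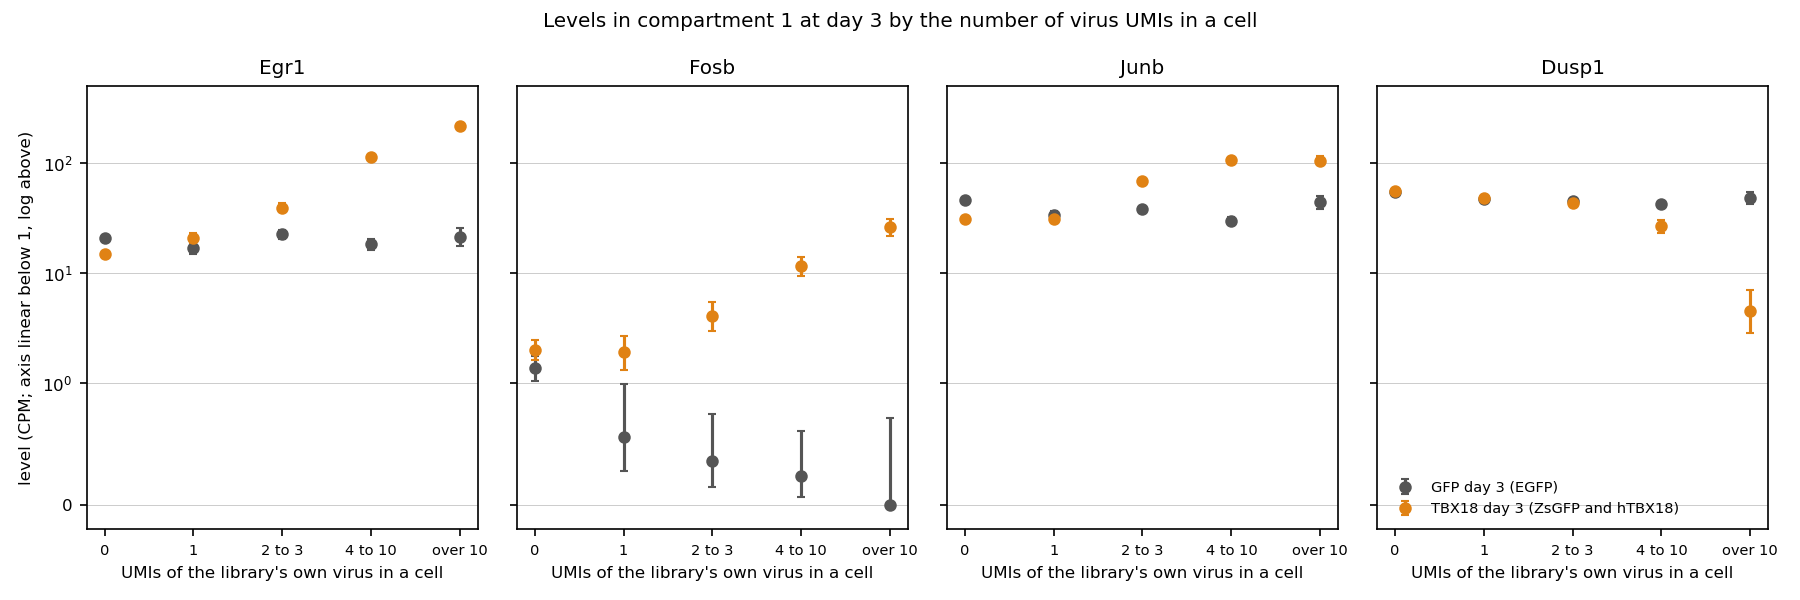
Level in CPM of Egr1, Fosb, Junb and Dusp1 in compartment 1 at day 3 (vertical axis, linear below 1 and logarithmic above) by the number of UMIs of the library's own virus in a cell (horizontal axis), for GFP in grey and TBX18 in orange, with 95% counting intervals. With TBX18, Egr1 goes from 14.8 to 217 CPM and Dusp1 from 55.7 to 4.52 CPM. With GFP, Egr1 lies between 16.7 and 22.4 CPM, and Dusp1 between 41.8 and 54.5 CPM with its highest value at 0 virus UMIs.

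At day 14 the comparison of TBX18 with GFP gave another pattern. Atf3 was the member that differed most in compartment 1, at 35.3 CPM with TBX18 and 156 CPM with GFP, which is 4.42-fold lower with TBX18 and a log2 ratio of -2.14 (-2.26 to -2.03). It was the 1 member of 7 at least 2-fold lower, where 0.951% of genes tested were, and 0 members were at least 2-fold higher, where 2.9% were. Atf3 passed the minimum of 20 CPM only through its GFP level at day 14, the high side here, which bears on this count. Egr1 had a ratio of -0.60 (-0.67 to -0.54), Jun -0.34 and Fos -0.32, while Junb was higher with TBX18, at 0.42 (0.35 to 0.49). Fosb, at -0.06 (-0.16 to 0.04), and Dusp1, at -0.08 (-0.16 to 0.01), had intervals that include 0 on the scale of total UMIs, but not under the scaling given next. All genes tested had a median of 0.20 in this comparison, and median-of-ratios scaling put Atf3 at -2.35, Dusp1 at -0.28, Fosb at -0.26 and Junb at 0.22.

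In compartment 2 the AP-1 members were higher with TBX18. The log2 ratios were 0.62 for Junb (0.60 to 0.65), 0.62 for Fosb, 0.38 for Fos and 0.38 for Jun, beside a median of 0.13 for all genes. Egr1 was lower, at -0.42 (-0.44 to -0.39), and Atf3, which is scarce there, at -0.65. None of the 6 members that passed the minimum was 2-fold higher, where 2.27% of genes were, or 2-fold lower, where 0.421% were.

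The Atf3 difference at day 14 followed the clusters in part. In the GFP library, cluster c10 held 1323 cells, 65.6% of compartment 1, and Atf3 stood at 222 CPM in it. In cluster c9, which both libraries share, Atf3 stood at 29.2 CPM in 375 GFP cells and at 29.9 CPM in 1007 TBX18 cells. In cluster c19, also shared, it stood at 60.5 CPM with GFP and 64.1 CPM with TBX18. The small shared cluster c15 differed, with Atf3 at 140 CPM in 50 GFP cells and at 12.2 CPM in 69 TBX18 cells. The other members differed less between c10 and c9 of the GFP library, Fos standing at 134 and 129 CPM and Jun at 217 and 215 CPM. Within compartment 1 of the GFP library, Atf3 did not differ beyond counting error with the presence of the virus. It stood at 173 CPM in cells with and 160 CPM in cells without a UMI of EGFP, a log2 ratio of 0.12 (-0.02 to 0.26). In compartment 2 of both libraries Atf3 was high in cluster c22, at 153 CPM in 183 GFP cells and 127 CPM in 74 TBX18 cells.

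**Figure D4:**
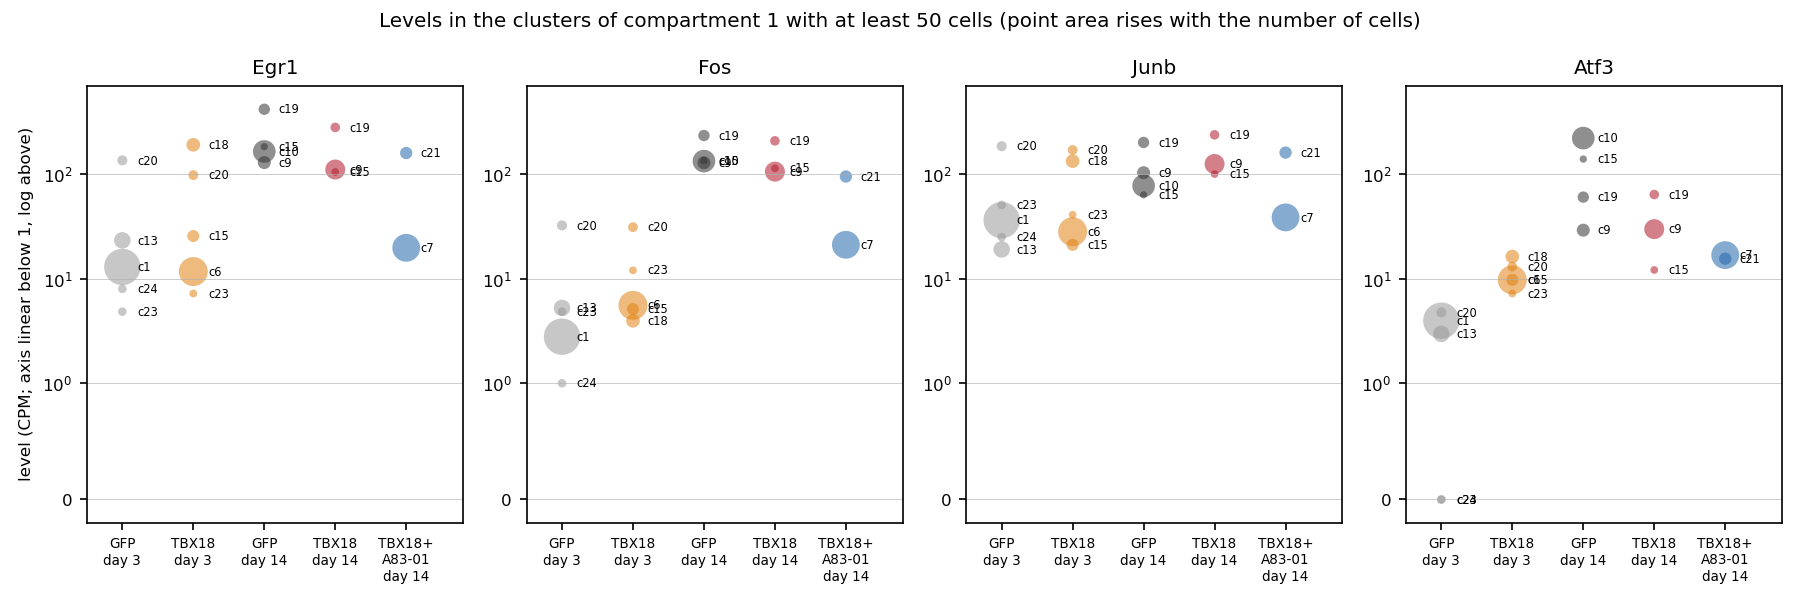
Level in CPM of Egr1, Fos, Junb and Atf3 (vertical axis, linear below 1 and logarithmic above) in each cluster of compartment 1 with at least 50 cells, by library, with point area growing with the number of cells. Cluster c18 of TBX18 at day 3 is high in Egr1 (192 CPM) and low in Fos (3.97 CPM), and cluster c10 of GFP at day 14 is the high one for Atf3 (222 CPM).

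A83-01 was set against TBX18 alone to see what the inhibitor adds. In compartment 1 all 7 members were lower with it, and in compartment 2 they were split. Among clusters of at least 50 cells, the compared cells of compartment 1 share none: they lie in c7 and c21 with A83-01 and in c9, c15 and c19 with TBX18 alone. The log2 ratios in compartment 1 were -2.38 for Fosb (-2.52 to -2.24), -1.86 for Fos (-1.95 to -1.77), -1.73 for Jun (-1.80 to -1.66), -1.72 for Egr1 (-1.80 to -1.64), -1.27 for Junb (-1.35 to -1.20), -1.06 for Atf3 (-1.21 to -0.91) and -0.47 for Dusp1 (-0.56 to -0.39). Of the 7, 6 were at least 2-fold lower, where 9.86% of genes tested were, and 0 were at least 2-fold higher, where 0.509% were. The members' median was -1.72 and that of all genes -0.38. Median-of-ratios scaling moves all values up by 0.38, so that 4 members (Fosb, Fos, Jun and Egr1) were at least 2-fold lower on that scale, where 3.94% of genes were, and Dusp1 came to -0.09.

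Compartment 1 of the A83-01 library held 2 clusters of at least 50 cells, and they differed. In c7, with 2040 cells, Egr1 stood at 19.8 CPM, Fos at 21.2 CPM and Dusp1 at 44.7 CPM. In c21, with 323 cells, Egr1 stood at 160 CPM, Fos at 95.3 CPM and Dusp1 at 195 CPM. Without c21 the Egr1 ratio was -2.67. When no cells were left out as doublets, it was -1.05.

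In compartment 2 of the A83-01 library, Fosb had a log2 ratio of -0.70 (-0.74 to -0.67), Jun -0.61 and Fos -0.42, while Junb was higher, at 0.26, Dusp1 at 0.30 and Egr1 at 0.23. Atf3 stood at 0.69 but from 9.13 and 5.68 CPM. None of the 6 members that passed was 2-fold higher, where 2.51% of genes were, or 2-fold lower, where 6.06% were. The 3 comparisons that use the TBX18 library at day 14 share its cells, so their ratios are not independent of each other.

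The compartments were then set against each other within each library, where culture and dissociation are shared. Fos, Fosb, Junb, Egr1 and Dusp1 were higher in compartment 2 in all 5 libraries. For Fos the log2 ratio of compartment 1 over compartment 2 was -4.16 with GFP and -3.40 with TBX18 at day 3, -1.04 and -1.74 at day 14, and -3.18 with A83-01. For Egr1 it was -3.54, -2.43, -1.23, -1.42 and -3.37 in the same order, and for Junb -2.23, -1.92, -1.23, -1.44 and -2.97. For these 3 genes the gap was narrower at day 14 without A83-01 than in the other libraries. Jun had ratios of -0.31, -0.45, 0.22, -0.50 and -1.62, and Dusp1 of -0.45, -0.52, -0.50, -0.76 and -1.53. Under median-of-ratios scaling each of these ratios was between 0.19 and 0.52 higher, depending on the library.

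Atf3 changed sides. Its ratio was -2.03 with GFP and -0.99 with TBX18 at day 3. At day 14 it was 4.13 in the GFP library (4.0 to 4.26), 2.64 in the TBX18 library (2.48 to 2.80) and 0.89 in the A83-01 library (0.75 to 1.04). Among members averaging 20 CPM or more over both compartments, 3 of 5 were at least 2-fold higher in compartment 2 with GFP at day 3, where 27.7% of genes were, and 3 of 5 with TBX18 at day 3, where 26.4% were. At day 14 it was 3 of 7 with GFP, where 25.9% of genes were (0 of 7 under median-of-ratios scaling, where 20.5% were), 4 of 7 with TBX18, where 21.6% were, and 6 of 6 with A83-01, where 33.8% were. In compartment 1 Atf3 was the 1 member at least 2-fold higher in GFP and in TBX18 at day 14, where 16.7% and 15.8% of genes were. For 0 of the members was this so in the other libraries, where 18.5% (GFP at day 3), 17.2% (TBX18 at day 3) and 15.6% (A83-01) of genes were. Some members passed the minimum through 1 compartment alone, which bears on these counts. Examples are Fos in compartment 2 at day 3 and Atf3 in compartment 1 with GFP and TBX18 at day 14.

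RNA from other cells in a droplet can add UMIs to cells that do not express a gene, and the files give no class known to lack these genes. The ratio of compartment 2 to compartment 1 in the GFP library at day 3 differed between members, being 17.9-fold for Fos, 4.69-fold for Junb and 1.24-fold for Jun. In the 731 barcodes with fewer than 500 genes of that library the summed members stood at 6.71 CPM (4.68 to 9.34), beside 369 CPM in the other barcodes. In the 292 such barcodes of TBX18 at day 3 they stood at 11.5 CPM, beside 411 CPM. These barcodes were not shown to be empty droplets: the 731 held 5213715 UMIs in total and the 292 held 2964042, in few genes each. Their levels are therefore not a measure of free RNA. The part of free RNA in the low levels of compartment 1 was not tested.

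The share of cells in which a member was found was also compared. After thinning to 5000 UMIs, a UMI of Fos was found in 2.07% (1.67% to 2.52%) of compartment 1 cells with GFP and 3.68% with TBX18 at day 3, and in 43.9%, 39.4% and 11.9% at day 14 with GFP, TBX18 and A83-01. In compartment 2 the shares for Fos were 26.9%, 24.1%, 59.9%, 78.8% and 62.5%. Egr1 was found in 6.02%, 9.10%, 47.8%, 36.4% and 13.2% of compartment 1 cells, and in 59.1%, 58.0%, 79.3%, 75.6% and 77.7% of compartment 2 cells. Atf3 reached 45.0% in compartment 1 with GFP at day 14, against 11.1% with TBX18. Without thinning the lowest share of Fos in compartment 1 was 7.26% and the highest 71.6%. Thinning left out at most 127 cells of a library and compartment.

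**Figure D5:**
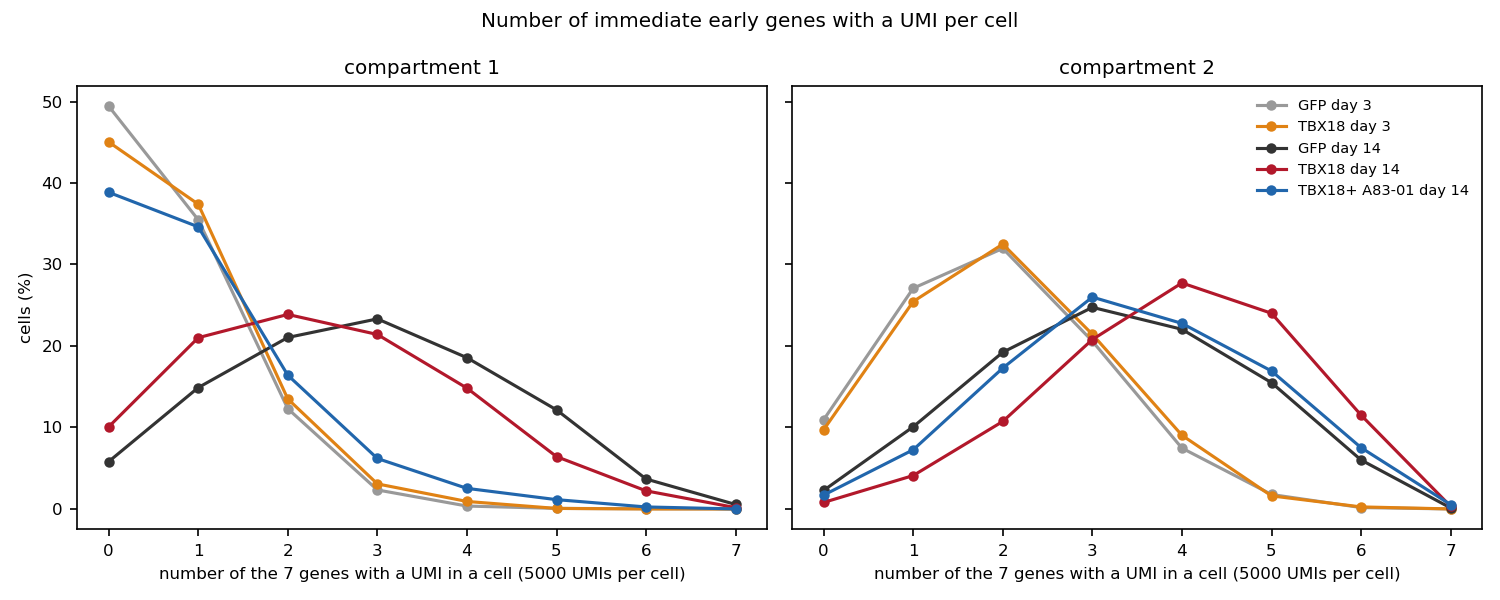
Share of cells (vertical axis, percent) by the number of the 7 genes with a UMI in the cell after thinning to 5000 UMIs (horizontal axis), for each library, with compartment 1 on the left and compartment 2 on the right. In compartment 1 both day 3 libraries and the A83-01 library peak at 0 genes, and in compartment 2 TBX18 at day 14 peaks at 4 genes.

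The number of members found per cell separated the libraries in compartment 1. The mean was 0.690 and 0.776 of 7 at day 3, 2.88 with GFP and 2.39 with TBX18 at day 14, and 1.03 with A83-01. None of the 7 was found in 49.4% and 45.0% of cells at day 3 and in 38.9% with A83-01, but in 5.81% with GFP and 10.1% with TBX18 at day 14. In compartment 2 the means were 1.93, 2.0, 3.25, 3.90 and 3.44, and 35.8% of TBX18 cells at day 14 held 5 or more of the 7. That share would be 31.1% if each gene were found independently at its own rate. The highest summed level of any cluster was in compartment 2 of that library, in c25, where 60 cells with a median of 8284 UMIs held Junb at 1290 CPM and Fos at 659 CPM.

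Over single cells the members varied together only weakly. Pearson correlations of log counts over the cells of 1 library and compartment (1261 to 6638 cells, same depth after thinning) had a median over the 10 sets of 0.25 for Fos with Fosb, 0.23 for Junb with Egr1 and 0.21 for Fos with Egr1. Atf3 had a median of -0.01 with Junb, 0.00 with Fos and 0.06 with Jun. In sparse counts such values are descriptions and not findings. Over the 10 sums of library and compartment, which share libraries, Fos and Egr1 had a correlation of 0.94, and Atf3 lay between -0.06 and 0.31 with the other 6.

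The genes most like the members were named by correlation over cells and over the 10 sums, among 4959 genes averaging 20 CPM or more. Over cells, counts were here scaled to the same total per cell and not thinned, unlike those of the pairs above. Over cells, ENSRNOG00000054344 had the highest mean correlation with the sum of the 7, 0.35, followed by ENSRNOG00000003357 at 0.34. Both were higher in compartment 2 in the GFP library at day 3. They stood at 12.4 and 130 CPM in compartment 1 there, against 98.6 and 4092 CPM in compartment 2. Over the 10 sums, ENSRNOG00000058646 came first at 0.98 and ENSRNOG00000017087 next at 0.97. The members' own correlations with that sum over cells, which contains them, were highest for Egr1, Junb and Fos (0.66, 0.61 and 0.58) and lowest for Atf3 (0.18).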

How the data were processed

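Single cells were captured with the 10x 3′ v3.1 chemistry, per the labels' protocols. Reads were processed with STAR 2.7.8a and Partek on Rnor_6.0, per the submitters' processing notes. The day 3 tables hold estimated counts of UMIs as the authors deposited them, of which 99.7% are whole within 0.05. The day 14 tables hold log2(CPM + 1) per cell as deposited by the authors, and UMIs were recovered by dividing by each cell's most common value above 0. The members had no fractional counts.

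Cells had to hold at least 500 genes, and the top 6% by doublet score were dropped, since the automatic threshold marked too few. Cells were clustered with scanpy 1.11.5 and leidenalg 0.10.2 (2000 variable genes, 30 components, 20 neighbours, resolution 1) without the 7 members and 3 virus features. The tables pair no identifier with a symbol, so the cell type markers and the planned lists of other early genes, regulators and heat shock genes could not be applied, and both compartments stay unnamed. UMIs were summed per library and compartment with numpy 2.4.6 and pandas 2.3.3 in Python 3.11.15. Ratios are of CPM, and genes averaging under 20 CPM were not counted. Intervals (exact Poisson, exact binomial and conditional, 95%, scipy 1.17.1) cover counting error only. Total depth per cell reached 33951 UMIs at day 14. The code was tested on simulated data. Named genes are the 7 members, with the 2 nearest by each measure of likeness. The members and lists were chosen with earlier results of these data known. The steps of virus UMIs and the clusters left out were chosen after seeing the data.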

Additional observations from a re-analysis of the deposited data

Results flagged for a closer look

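For some members the log2 ratio of TBX18 over GFP had opposite signs at day 3 and day 14, a difference between days that was not tested. In compartment 1 Fos had a ratio of -0.32 at day 14 and 0.57 at day 3. Jun had -0.34 at day 14 and 0.20 at day 3. Egr1 had -0.60 at day 14 and 0.95 at day 3, where the value without cluster c18 was -0.15. Atf3, at -2.14 at day 14 and 1.48 at day 3, was the member with the widest change of side.

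In compartment 2 the signs were turned the other way for 2 members. Fos had a ratio of 0.38 at day 14 and -0.19 at day 3, and Junb 0.62 at day 14 and -0.08 at day 3. Under median-of-ratios scaling the day 3 value of Junb was -0.01, so its opposite sign is within counting error there. Atf3 had -0.65 at day 14 and 0.45 at day 3, from levels between 5.68 and 21.1 CPM.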

How the results depend on the processing

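No paired analysis was possible because each group has 1 library, which also means that no library could be left out. The planned counts over lists of other genes were not run, for lack of names. Of the members' log2 ratios under other settings, 864 moved by less than their counting interval, 396 moved by more and 0 reversed. With 1 minor cluster left out, chosen after seeing the data, 2 reversed: without c18, TBX18 over GFP at day 3 in compartment 1 was -0.19 for Junb and -0.15 for Egr1. Changes of sign near 0 were not counted as reversed. Dusp1 in this comparison went from -0.05 to 0.05 under median-of-ratios scaling, and to at most 0.10 with 1 cluster left out. With a pseudocount of 5 CPM, 0 members were at least 2-fold higher in that comparison in either compartment (2 and 1 otherwise), and 0.742% of all genes in compartment 2 (1.16% otherwise). Under median-of-ratios scaling, 3 members were at least 2-fold higher for TBX18 over GFP at day 3 in compartment 1 (2 otherwise). In compartment 2 it was 4 for GFP at day 14 over day 3 (5 otherwise) and 3 for TBX18 at day 14 over day 3 (5 otherwise). On the same scale 0 were 2-fold lower in compartment 1 than in compartment 2 for GFP at day 14 (3 otherwise). Leaving the 50 most abundant genes out of the totals made the latter 1, and made 1 member 2-fold higher in compartment 1 with A83-01 (0 otherwise). With a minimum of 5 CPM or none, 1 member was 2-fold lower for TBX18 at day 14 over day 3 in compartment 2. With no minimum, 5 members were 2-fold lower in compartment 1 for GFP at day 3 (3 otherwise). With no doublets left out, 0 were 2-fold higher in compartment 1 for TBX18 at day 14 (1 otherwise). Of all genes, median-of-ratios scaling gave 1.79% higher for TBX18 over GFP at day 14 in compartment 1, 1.5% higher and 3.94% lower for A83-01 in compartment 1, 8.58% higher and 6.37% lower for TBX18 at day 14 over day 3 in compartment 1, and 13.5% lower in compartment 2. Without the 50 most abundant genes, A83-01 gave 0.958% higher and 5.78% lower. For TBX18 over GFP at day 14 in compartment 2, the share lower (0.421% otherwise) was 0.742% under median-of-ratios scaling, 0.738% with no doublets left out, 0.703% as a mean over cells, 0.741% after thinning, 0.674% at a minimum of 5 CPM and 0.990% with none. Low counts limit Fosb at day 3 most: with a pseudocount of 5 CPM its ratio of day 14 over day 3 with GFP in compartment 1 was 3.66 in place of 6.47.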
